A study of Mus musculus with 52 samples.

Results

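The comparison described here is between the testes of Tug1-/- mice and those of wild-type mice, gene by gene across the whole testes expression table. All rows of that table were taken, which are 34865 genes of the 38997 genes listed for any tissue of the series, and 8 of the series' 52 samples, 4 of each genotype. For wild-type testes the labels name the strain mix C57BL/6J/129S6 (C57BL/6J, no Neo), and for Tug1-/- testes they name C57BL/6J/129S6 (C57BL/6J, Neo, LacZ). Both are labelled with the strain Tug1_tm1.1Vlcg. In the knockout allele a lacZ reporter takes the place of the Tug1 gene body in every cell of the animal, and the labels give no age. Per the study's methods the neomycin gene of the targeting construct was removed by Cre before the colony was expanded, while the Tug1-/- testes label still names Neo, so whether these animals carried it is unclear. The loss of Tug1 and the inserted lacZ cannot be told apart in this comparison. A further group of 3 testes samples, named rescue, is Tug1-/- with a doxycycline-inducible Tug1 transgene (tg(Tug1)) and the CAGs-rtTA3 activator, on a doxycycline diet. Its means are given beside the others only to place a level.

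The values are the authors' mean TPM (a level per transcript, corrected for sequencing depth and gene length) of each group. No value of a single animal was used, so no spread between animals, no test and no p-value stands behind any difference below, and a mean can be set by 1 of its samples. A gene is called higher or lower here at a ratio of 1.5-fold or more on the log2(TPM + 0.1) scale, which understates the ratio of genes near 0, and only among genes of at least 1 TPM in either group. Log2 ratios are Tug1-/- over wild type throughout. The testis is bulk tissue, so fewer cells of a type and less RNA per cell cannot be told apart.

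In the seminiferous tubules, spermatogonia divide and enter meiosis as spermatocytes, which become round spermatids and then elongating spermatids, in which protamines replace histones and the flagellum is built. Sertoli cells line the tubule and support every germ-cell stage. Leydig cells lie between the tubules and make testosterone, and peritubular myoid cells surround the tubules with a contractile layer. Sperm then pass through the epididymis, whose initial segment, caput, corpus and cauda each secrete their own set of proteins, and into the vas deferens. Tug1 is a long noncoding RNA gene expressed in many tissues.

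Tug1 itself (ENSMUSG00000056579.18, chr11:3639785-3649673, minus strand, mm10) had a mean of 40.1 TPM in wild-type testes, 0.885 TPM in Tug1-/- testes and 1.60 TPM in rescue testes. The wild-type mean was 45.3 times the Tug1-/- mean. The labels of both groups therefore match the level of the targeted gene.

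Most genes had nearly the same mean in both genotypes. Of 34865 genes, 22378 had at least 1 TPM in either group, and these held 99.6% of all wild-type TPM. Among them 18260 (81.6%) lay within 1.2-fold. Of the 22378 genes, 615 were at least 1.5-fold higher in Tug1-/- testes (2.75%) and 786 at least 1.5-fold lower (3.51%). The median log2 ratio was 0.03, 61.7% of genes lay above 0, and the central 95% ran from -0.80 to 0.61.

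How far a gene lay from a ratio of 1 depended on its level. Between 1 and 3 TPM (the mean of both groups), the central 95% of log2 ratios ran from -1.10 to 0.79 and 11.2% of 5460 genes were past 1.5-fold. At 100 TPM or more it ran from -0.14 to 0.19, and 26 of 2003 genes (1.30%) were past 1.5-fold. None of the 86 genes with at least 1000 TPM in both groups was past it. Of 10164 genes with at least 10 TPM in both groups, 65 were higher and 45 lower, a filter that leaves out the genes near 0 in either genotype. Split by the mean of both groups, 75 were higher and 112 lower at 10 to 100 TPM, and 11 higher and 15 lower at 100 TPM or more.

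**Figure D1:**
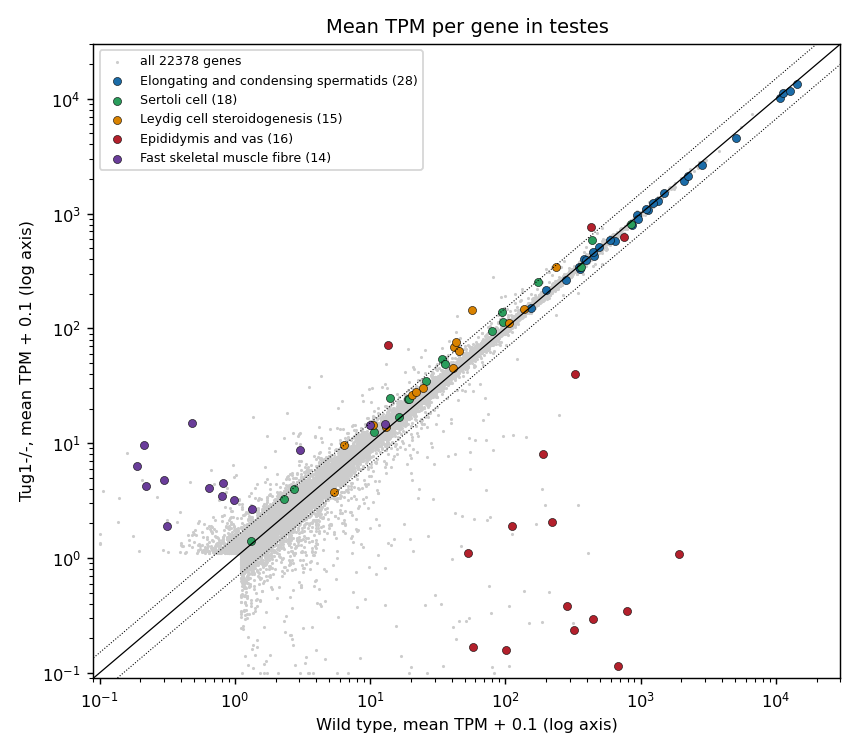
Mean TPM of each gene in wild-type (x axis) and Tug1-/- testes (y axis), both plus 0.1 on log axes, with 5 gene lists in colour. The solid line is equality and dotted lines mark 1.5-fold. Elongating spermatid genes sit on the line at the top right, most epididymal genes lie far below it and most fast muscle genes lie above it.

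The lowest log2 ratios included those of secretory genes of the epididymis. The 172 genes at least 4-fold lower summed to 11215 TPM in wild-type testes, 1.12% of all wild-type TPM, against 317 TPM in Tug1-/- and 164 TPM in rescue testes. Of the 172 genes, 137 were protein coding (15250 of all 22378 kept genes), and 116 were under 1 TPM in Tug1-/- testes. The 12 lowest log2 ratios belonged to Lcn5, Lcn8, Gpx5, Lcn9, Spag11b, Defb25, 9230110F15Rik, Clpsl2, Cst11, Lcn10, Defb18 and Spint4, of which 7 are in the list of epididymis and vas genes.

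Gpx5, an epididymis-specific secreted glutathione peroxidase, had 1921 TPM in wild-type testes, 0.981 TPM in Tug1-/- testes and 0.297 TPM in rescue testes (log2 ratio -10.80). Lcn5, a retinoid-binding lipocalin of the epididymal lumen, had 680.0 TPM in wild-type against 0.0155 TPM in Tug1-/- testes (log2 ratio -12.52). Lcn8, its neighbour and another epididymal lipocalin, had 799 TPM and 0.244 TPM (log2 ratio -11.18). In each of these genes only the wild-type mean was high, and the Tug1-/- and rescue means were both near 0.

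Of 18 epididymal genes listed, 16 were kept, and 13 of them were lower and 2 higher (background 3.51% and 2.75%). The list was written with earlier results of these data known. Members such as Lcn5, Lcn8 and Gpx5 passed the 1 TPM filter through the wild-type mean alone, so these counts describe the list and test nothing. The median log2 ratio of the 16 was -7.59, beside 0.03 over all genes, and their list summed to 6700 TPM in wild-type, 1514 TPM in Tug1-/- and 601 TPM in rescue testes. Svs2 and Pate4 were under 1 TPM in both groups and are not in the median. The exceptions among the kept genes were of other kinds. Cst8, a cystatin also made by spermatids, had 747 TPM and 626 TPM (log2 ratio -0.25). Crisp1, a cysteine-rich protein that coats sperm in the epididymis, had 427 TPM in wild-type, 760.5 TPM in Tug1-/- and 0.348 TPM in rescue testes. Defb2, a beta-defensin, had 13.6 TPM in wild-type against 72.1 TPM in Tug1-/- testes and was listed at 0 in rescue testes. Adam7, an epididymal membrane protein passed on to sperm, was intermediate, with 326 TPM, 39.8 TPM and 0.0193 TPM in wild-type, Tug1-/- and rescue testes.

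Lcn5 and Lcn8 lie within the same run of lipocalin genes on chromosome 2, and 7 genes between 25 and 26 Mb there (Lcn8, Lcn5, Lcn6, Lcn10, Obp2a, Bmyc and Lcn9) were at least 4-fold lower, with sums of 2036 TPM in wild-type against 2.59 TPM in Tug1-/- testes. Their promoters, from 250 bases before to 50 after the RefSeq start on GRCm38.p6, are shown because these neighbours had the lowest log2 ratios of the table; capitals mark TATAA on either strand (Lcn5 at chr2:25657702-25658001, plus strand; Lcn8 at chr2:25652868-25653167, plus strand).
Lcn5: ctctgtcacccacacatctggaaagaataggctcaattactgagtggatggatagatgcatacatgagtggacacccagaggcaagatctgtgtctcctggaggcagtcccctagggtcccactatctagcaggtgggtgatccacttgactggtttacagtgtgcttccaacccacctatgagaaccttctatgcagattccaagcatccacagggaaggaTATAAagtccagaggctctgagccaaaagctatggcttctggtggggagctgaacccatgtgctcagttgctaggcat
Lcn8: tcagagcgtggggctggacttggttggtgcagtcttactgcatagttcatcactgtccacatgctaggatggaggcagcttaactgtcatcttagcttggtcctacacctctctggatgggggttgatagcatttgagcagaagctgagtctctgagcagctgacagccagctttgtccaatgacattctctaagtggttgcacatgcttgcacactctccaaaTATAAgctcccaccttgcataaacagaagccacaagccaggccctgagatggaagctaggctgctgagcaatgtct
The element began 28 bases before the start of Lcn5 and 26 bases before that of Lcn8. Of the 12 epididymal genes with a promoter in the table, 5 held TATAA (41.7%), beside 28.0% of 27025 genes.

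Whole gene families, chosen after their values were seen and with every member counted, fell into several kinds (background 3.51% lower and 2.75% higher). Of 34 beta-defensin genes (Defb, secreted antimicrobial peptides, many of them made in the epididymis) kept of 38 in the table, 21 were lower and 7 higher, and 17 were at least 4-fold lower. Of 8 lipocalins (Lcn), 6 were lower and 1 higher, and of 6 genes of the RNase A family 5 were lower and none higher. Their summed TPM was 3225 and 1620 for the defensins, 2277 and 358 for the lipocalins, and 530 and 47.7 for the RNase A family, in wild-type and Tug1-/- testes. The other families were less one-sided or went the other way. Of 9 Kazal inhibitors (Spink), 5 were lower and 2 higher (1432 and 1153 TPM), and of 14 WAP-domain inhibitors (Wfdc) 4 were lower and 2 higher (765 and 771 TPM). Of 11 cystatins (Cst) 1 was lower and none higher (2732 and 2498 TPM). Of 13 clade A serpins, which inhibit proteases, 6 were higher and none lower (298 and 461 TPM), and of 16 kallikreins (Klk) 5 were higher and none lower (342 and 414 TPM).

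In the defensin clusters neighbouring genes differed in opposite directions. Defb20 (chr2:152477063-152479934) had 409.8 TPM in wild-type against 1.01 TPM in Tug1-/- testes, Defb28 (chr2:152518255-152521447) had 118 TPM and 200.4 TPM, and Defb25 (chr2:152622356-152623053) had 315 TPM and 0.173 TPM. In rescue testes these were 0.657, 0.765 and 0.143 TPM, all near 0. Defb19, which lies between them at chr2:152576086-152580312 and is also a gene of Sertoli cells, had 520.3 TPM, 751 TPM and 745 TPM in wild-type, Tug1-/- and rescue testes. The 4-fold lower genes formed 6 windows of 1 Mb with at least 4 such genes each, on chromosomes 1, 2, 8, 9 and 14, which held 34 of the 172.

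The 42 genes at least 4-fold higher summed to 46.9 TPM in wild-type against 364 TPM in Tug1-/- testes. Of these, 28 were protein coding (15250 of all 22378 kept genes). The 12 highest log2 ratios belonged to Spink14, Tnnt3, 9230019H11Rik, Myh4, Acta1, Klk1b14-ps, Gm11946, Tnni2, Gm44223, Pvalb, Svs1 and Gm45197, of which 5 are in the fast skeletal muscle list described below and none is in the epididymal list. Spink14, a Kazal-type protease inhibitor, had 0.0603 TPM in wild-type against 8.15 TPM in Tug1-/- testes and was listed at 0 in rescue testes. Svs1, a seminal vesicle secretory gene, had 0.0377 TPM and 1.95 TPM. Among genes of at least 10 TPM in both groups, the 6 with the highest log2 ratios were Defb2, Ly6f, Cd52, 1700001F09Rik, Aplp1 and Wfdc15b. Cd52, a surface glycoprotein of lymphocytes and of the distal epididymis and vas deferens, had 80.4 TPM in wild-type, 282 TPM in Tug1-/- and 3.12 TPM in rescue testes. Wfdc15b had 43.9, 129 and 0.116 TPM in the same order. In contrast to these, Aplp1 (10.2, 30.3 and 25.7 TPM) and 1700001F09Rik (19.0, 66.0 and 70.4 TPM) were above wild type in both Tug1-/- and rescue testes.

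Fast skeletal muscle genes, a list written after their values were seen, had 16 members, of which 14 were kept and 12 were higher (background 2.75%), with none lower (median log2 ratio 2.54). Members such as Acta1, Tnnt3 and Myh4 passed the 1 TPM filter through the Tug1-/- mean alone. The count and its direction therefore follow from how the list was made and test nothing. Acta1, skeletal muscle actin, had 0.380 TPM in wild-type, 14.8 TPM in Tug1-/- and 0.276 TPM in rescue testes. Tnnt3, fast troponin T, had 0.113, 9.48 and 0.0899 TPM, and Myh4, a fast myosin heavy chain, 0.0876, 6.25 and 0.0526 TPM. The list summed to 30.9, 96.8 and 35.1 TPM in wild-type, Tug1-/- and rescue testes, so these genes were high in the Tug1-/- mean alone. Casq1 (12.8 and 14.7 TPM) and Actn3 (9.89 and 14.2 TPM) were the kept members under 1.5-fold, and both had over 9 TPM in wild-type testes. The part that tissue attached to the dissected testes plays in any of these values was not tested, and the means do not show in how many samples of a group the genes were high.

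**Figure D2:**
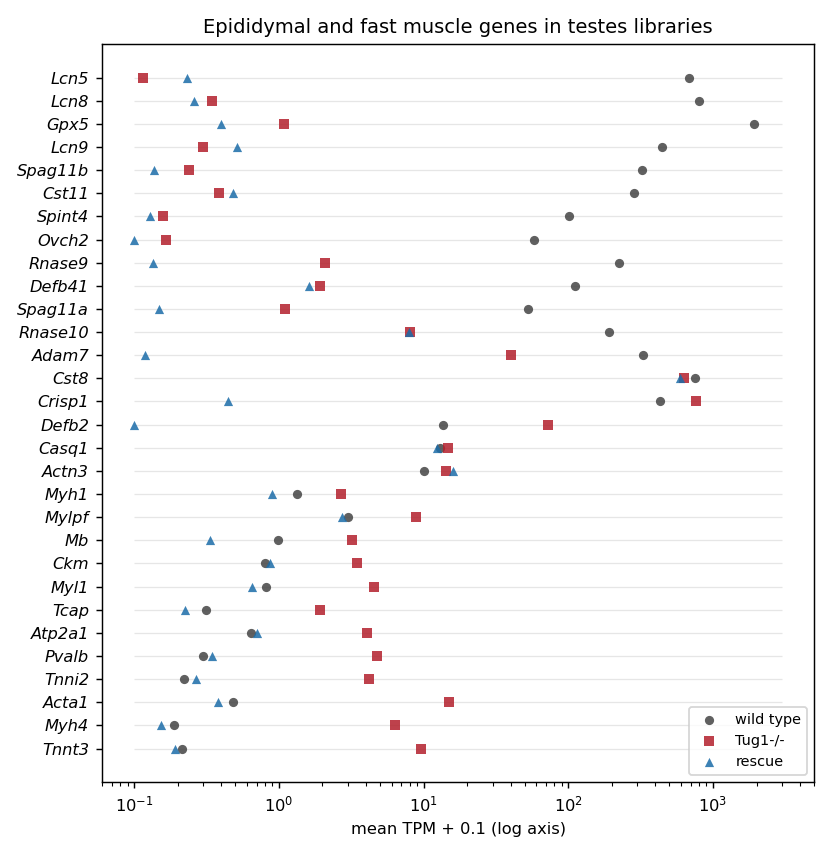
Mean TPM plus 0.1 (log x axis) of the 16 epididymal and 14 fast muscle genes of at least 1 TPM in wild-type or Tug1-/- testes, in wild type (circles), Tug1-/- (squares) and rescue (triangles). Circles stand alone at the right for the epididymal genes from Lcn5 to Rnase10, and squares stand alone at the right for the muscle genes from Mylpf to Tnnt3.

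The kept genes of the germ-cell lists from meiosis onward were within 1.5-fold. Over the 10 germ-cell lists, 4 of 168 kept members were past 1.5-fold, all of them in the 2 spermatogonial lists, and none of the 150 in the later lists was. Gapdhs is in 2 of the later lists and was counted in each. The share over all kept genes was 6.26%, but it was 2.21% at 10 to 100 TPM and 1.30% at 100 TPM or more, so a count of 0 is close to the background of abundant genes. The medians were 0.03 for undifferentiated spermatogonia, 0.11 for differentiating spermatogonia, 0.07 for synapsis and recombination, 0.07 for the piRNA pathway, 0.05 for pachytene and late spermatocytes, 0.04 for the intercellular bridges, 0.02 for round spermatids and the acrosome, -0.02 for the axoneme, -0.03 for sperm glycolytic isozymes and -0.06 for elongating spermatids, beside 0.03 over all genes. With log2 ratios centred on their all-gene median the round spermatid median was -0.01 and that of undifferentiated spermatogonia 0.00, while the signs of the other medians just named stayed as given.

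Of 13 genes of undifferentiated spermatogonia, the cells that hold the stem cells, 10 were kept, with a median log2 ratio of 0.03, and 3 were lower (background 3.51%). At a minimum of 5 TPM in either group the median was -0.63, since fewer members are kept. Gfra1, the GDNF co-receptor, had 11.1 TPM in wild-type against 3.84 TPM in Tug1-/- testes (log2 ratio -1.51). Cdh1, E-cadherin, had 7.17 TPM and 2.40 TPM, and Etv5, an ETS transcription factor, 23.7 TPM and 15.3 TPM. The other genes of the same cells were close in both genotypes. Zbtb16, a stem-cell regulator, had 3.10 TPM and 3.08 TPM, Id4 23.0 TPM and 26.7 TPM, and Uchl1, the most abundant member, 49.0 TPM and 56.1 TPM. In rescue testes Gfra1 and Etv5 had 4.003 TPM and 16.01 TPM, near their Tug1-/- means, and Cdh1 had 0.671 TPM, below its Tug1-/- mean. In these testes most epididymal genes were low too, and the part of epididymal RNA in the wild-type level of Gfra1, Cdh1 and Etv5 was not tested.

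All 8 genes of differentiating spermatogonia were above 0 (61.7% of all genes), and 1 was past 1.5-fold. Ccnd2, cyclin D2, had 2.86 TPM in wild-type against 6.90 TPM in Tug1-/- testes (log2 ratio 1.24), with 5.72 TPM in rescue testes. Kit, the receptor that marks the differentiating step, had 9.91 TPM and 9.95 TPM. Stra8, which is required for entry into meiosis, had 16.9 TPM and 19.1 TPM.

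Of 31 genes of meiotic synapsis and recombination, 30 were kept, 26 of them above 0 (61.7% of all genes) and none past 1.5-fold. Tex11, a meiotic crossover factor on the X chromosome, had the highest log2 ratio of the list (0.23), with 12.3 TPM in wild-type against 14.4 TPM in Tug1-/- testes. M1ap, required for meiosis I in males, had the lowest (-0.10), with 111 TPM and 104 TPM. Sycp1, Sycp2 and Sycp3, which build the synaptonemal complex, lay between 0.08 and 0.14. Among genes of pachytene and late spermatocytes, 9 of 12 were above 0. The chaperone Hspa2 had 1161 TPM and 1251 TPM, and Adam3, the most abundant member, 1328 TPM and 1322 TPM.

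All 20 kept genes of the piRNA pathway, which silences transposons in germ cells, lay above 0 (61.7% of all genes) within a narrow range from 0.01 to 0.13. Of the 20, 16 lay above the all-gene median of 0.03. Mael, the most abundant, had 1646 TPM in wild-type against 1716 TPM in Tug1-/- testes. Piwil1, the piRNA-binding protein of pachytene cells, had 311 TPM and 330 TPM, and Piwil2, which acts earlier, 115 TPM and 126 TPM (log2 ratio 0.13, the highest of the list). Piwil4 was under 1 TPM in both (0.814 and 0.491 TPM, log2 ratio -0.63) and was not kept. All 6 genes of the intercellular bridges that join sister germ cells were above 0 as well, with a median of 0.04, close to that of all genes. Tex14, which keeps the bridges open, had 56.5 TPM and 58.1 TPM.

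Round spermatid and acrosome genes differed little between the genotypes, with log2 ratios from -0.10 to 0.13. Of the 25 genes, 20 were above 0 (61.7% of all genes) and 11 above the all-gene median. Spaca4, a sperm acrosomal membrane protein, had the highest (224 TPM and 246 TPM), and Tssk3, a testis-specific kinase, the lowest (386 TPM and 361 TPM). Dkkl1, the most abundant, had 1076 TPM and 1119 TPM. The transcription factor Crem, which switches on many spermatid genes, had 100.4 TPM and 102 TPM.

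Genes of elongating and condensing spermatids stood on the other side. Of 28 genes, 20 were below 0 and none was past 1.5-fold, and 5 lay above the all-gene median of 0.03. These are among the most abundant transcripts of the testis, and their sum was 75116 TPM in wild-type (7.52% of all TPM), 71359 TPM in Tug1-/- (7.14%) and 69677 TPM in rescue testes. Prm1, protamine 1, which packs sperm DNA, had 14339 TPM in wild-type, 13386 TPM in Tug1-/- and 13033 TPM in rescue testes (log2 ratio -0.10 for Tug1-/- over wild type). Prm2 had 12768, 11663 and 11685 TPM. Transition protein Tnp1 had 10705, 10247 and 9942 TPM, while Tnp2 had 11259, 11304 and 10727 TPM. Smcp, a cysteine-rich protein of the sperm mitochondrial capsule, had 5054 and 4572 TPM in wild-type and Tug1-/- testes. The lowest log2 ratio was that of Oaz3, a testis-specific antizyme (-0.17, 644 TPM and 573 TPM), and the highest that of Odf3, an outer dense fibre protein (0.10, 201 TPM and 216 TPM). A difference of this size cannot be set against the spread between animals, which the means do not carry.

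The Prm1 promoter (chr16:10796774-10797073, minus strand, GRCm38.p6, RefSeq) is shown because Prm1 was the most abundant gene of this list; TATAA on either strand is in capitals.
Prm1: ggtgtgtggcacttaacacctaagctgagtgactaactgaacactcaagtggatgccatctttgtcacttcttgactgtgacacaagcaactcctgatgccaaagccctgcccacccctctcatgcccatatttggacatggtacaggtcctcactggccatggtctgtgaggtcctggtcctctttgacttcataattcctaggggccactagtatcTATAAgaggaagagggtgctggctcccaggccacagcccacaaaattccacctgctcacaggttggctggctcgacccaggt
The element began 32 bases before the start. TATAA was found in the promoters of 7 of 23 elongating spermatid genes with an entry (30.4%, beside 28.0% of all genes), and the cAMP response element TGACGTCA, the full site bound by CREM, in 1 of 23 (4.35%, beside 2.03%), that of Ccin.

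Flagellar genes lay, by their median, between the round and the elongating spermatid genes. Of 23 axoneme and flagellum genes, 8 were above 0 (61.7% of all genes), 15 below 0 and none past 1.5-fold. Only 1 lay above the all-gene median of 0.03. Their log2 ratios ran from -0.14 (Hydin, a central-pair protein, 66.7 TPM and 60.6 TPM) to 0.06 (Fsip2, a fibrous sheath protein, 71.6 TPM and 74.9 TPM). Rsph1, a radial spoke protein and the most abundant member, had 1680 TPM and 1668 TPM. Of the 6 glycolytic isozymes that power sperm motility, 2 were above 0 and none lay above the all-gene median. Gapdhs had 2094 TPM and 1939 TPM (log2 ratio -0.11) and Ldhc, the sperm lactate dehydrogenase, 5525 TPM and 5637 TPM (0.03).

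**Figure D3:**
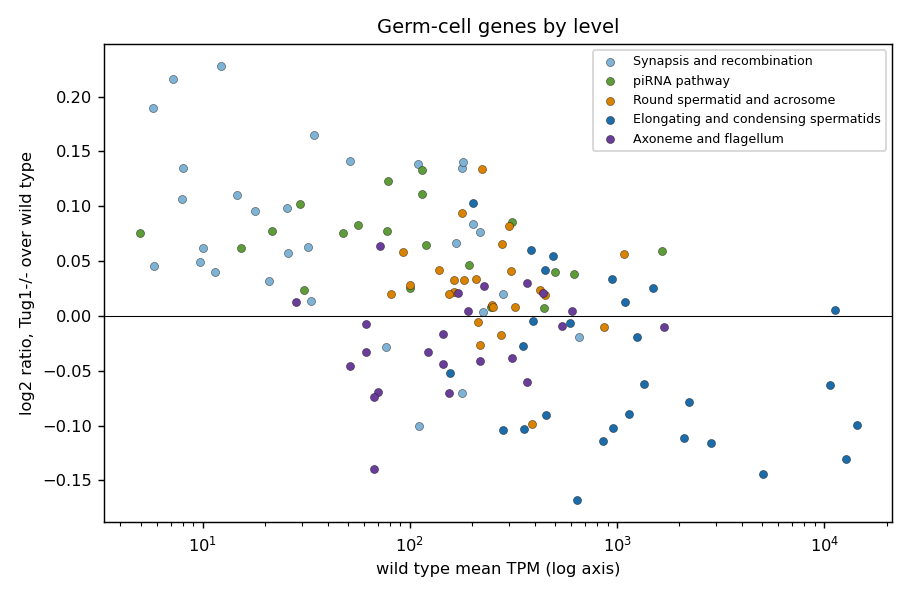
Log2 ratio of Tug1-/- over wild type (y axis) against wild-type mean TPM (log x axis) for genes of 5 germ-cell lists. All points lie between -0.17 and 0.23, with the piRNA genes above 0 and most elongating spermatid genes below it.

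Sertoli, Leydig, peritubular and macrophage genes had the highest medians among the lists of testicular cells, whereas blood-testis barrier, cholesterol and endothelial lists lay near the all-gene median. Of 18 Sertoli cell genes, 16 were above 0 (median log2 ratio 0.39, beside 61.7% of all genes above 0 and a median of 0.03), and 2 were higher by at least 1.5-fold with none lower (background 2.75%). Shbg, which encodes the androgen-binding protein, had 14.0 TPM in wild-type, 24.8 TPM in Tug1-/- and 29.0 TPM in rescue testes (log2 ratio 0.82). Vim, vimentin, had 33.7, 53.7 and 52.7 TPM. Fshr, the receptor for follicle-stimulating hormone, had 2.65, 3.90 and 5.33 TPM. Cst9, an abundant cystatin of Sertoli cells, had 434, 591 and 606 TPM, and the claudin of the blood-testis barrier, Cldn11, had 94.2, 138 and 148 TPM. The transcription factors Sox9 (10.6 and 12.4 TPM in wild-type and Tug1-/- testes) and Wt1 (19.0 and 24.3 TPM) and the homeobox gene Rhox5 (35.7 and 48.7 TPM) were also above 0. The 2 members below 0 were Clu (848 and 809 TPM), which epididymal epithelium also expresses, and Cst12 (361 and 344 TPM). The Sertoli list summed to 2266, 2592 and 2729 TPM in wild-type, Tug1-/- and rescue testes, so Tug1-/- lay between the other means.

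The 2 lists of junction genes differed in their medians, but their sums had the reverse order. Summed TPM was higher in Tug1-/- testes by 9.82% for the blood-testis barrier and by 7.29% for the junctions between Sertoli cells and spermatids. Of 11 genes of the blood-testis barrier, 6 were above 0 (61.7% of all genes) and 5 below (median 0.05). Cldn11 and Cdh2, N-cadherin (21.9 and 28.2 TPM), had the highest log2 ratios, 0.55 and 0.36. Tjp3 (1.75 and 0.961 TPM) was the 1 lower member (background 3.51%), and Cldn3, the most abundant, had 104 TPM and 86.8 TPM. Of 9 genes of the junctions between Sertoli cells and spermatids, 7 were above 0 and none was past 1.5-fold (median 0.20). Itga6, an integrin, had 6.36 TPM and 8.94 TPM, and Nectin3, the spermatid side of the contact, 118 TPM and 121 TPM.

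Sertoli cells engulf the cytoplasm that spermatids shed, the residual bodies. Of 8 genes of this uptake, 6 were above 0 (61.7% of all genes) and 1 was lower by at least 1.5-fold (background 3.51%). The 6 included the receptors Tyro3 (21.9 TPM in wild-type against 27.7 TPM in Tug1-/- testes), Axl (29.9 and 34.1 TPM) and Mertk (8.35 and 9.24 TPM). The ligand Pros1 (23.6 and 33.2 TPM) was above 0 too, whereas Gas6 (72.2 and 61.7 TPM, log2 ratio -0.23) was below 0. Mfge8, a bridging protein that binds phosphatidylserine, was lower, with 121 TPM in wild-type, 54.1 TPM in Tug1-/- and 55.9 TPM in rescue testes (log2 ratio -1.16). The list summed to 330, 279 and 289 TPM in the same order, with Mfge8 its most abundant member. Mfge8 is also a gene of the epididymis, and the part of epididymal RNA in its wild-type level was not tested.

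Leydig cell genes were above 0 in 14 of 15 cases (median log2 ratio 0.37), and 3 were higher by at least 1.5-fold (background 2.75% higher, 61.7% above 0). Insl3, the insulin-like hormone of mature Leydig cells, had 56.9 TPM in wild-type, 144 TPM in Tug1-/- and 65.5 TPM in rescue testes, a ratio of Tug1-/- to wild type of 2.52. Cyp11a1, the side-chain cleavage enzyme that starts steroid synthesis, had 43.2, 75.5 and 83.0 TPM, and Star, which brings cholesterol to it, 41.5, 68.7 and 44.5 TPM. Cyp17a1, the most abundant member, had 235, 341 and 315 TPM. Hsd17b3, which makes testosterone, had 45.0, 62.9 and 48.1 TPM, and the receptor for luteinizing hormone, Lhcgr, 6.33, 9.46 and 9.93 TPM. The member below 0 was Srd5a1, a steroid reductase that the epididymis also expresses (5.27 and 3.69 TPM in wild-type and Tug1-/- testes). Rescue testes were therefore near wild type for Insl3, Star and Hsd17b3 and near Tug1-/- for Cyp11a1 and Lhcgr. Hsd3b6 stood apart, with 136 and 147 TPM in wild-type and Tug1-/- testes and 67.1 TPM in rescue testes. The list summed to 807, 1122 and 918 TPM.

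The Insl3 promoter (chr8:71689002-71689301, plus strand, GRCm38.p6, RefSeq) is shown because Insl3 had the highest log2 ratio among the Leydig genes; capitals mark 2 overlapping matches of TATAA, 1 on each strand.
Insl3: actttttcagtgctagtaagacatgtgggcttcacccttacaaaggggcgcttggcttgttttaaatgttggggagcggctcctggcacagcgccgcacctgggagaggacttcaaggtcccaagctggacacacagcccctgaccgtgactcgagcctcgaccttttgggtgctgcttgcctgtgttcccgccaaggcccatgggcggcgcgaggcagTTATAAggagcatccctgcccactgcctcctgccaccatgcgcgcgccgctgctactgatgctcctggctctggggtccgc
Of 10 Leydig genes with a promoter entry, 3 held TATAA (30.0%, beside 28.0%), and none held AAGGTCA, a site of the steroidogenic factor NR5A1, on either strand of this window, beside 5.38% of all genes.

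The Klk1b kallikreins, a mouse cluster of serine proteases on chromosome 7 of which several are made by Leydig cells, ranged from genes past 1.5-fold to genes near a ratio of 1. Of 14 listed, 12 were kept, and 4 were higher (background 2.75%) with none lower (median log2 ratio 0.19). Klk1b22 had 3.79 TPM in wild-type, 11.3 TPM in Tug1-/- and 0.547 TPM in rescue testes. Klk1b27 had 12.2, 31.0 and 2.65 TPM, Klk1b21 had 23.8, 56.4 and 5.45 TPM, and Klk1b24 had 19.2, 34.3 and 5.95 TPM. In all 4, rescue was below wild type, as it was in all 12 kept members. The other kept members lay between -0.09 and 0.41, the highest being Klk1b16 with 3.85, 5.15 and 1.96 TPM. Klk1b8, the most abundant, had 155, 148 and 144 TPM, and Klk1b9 had 38.5, 36.2 and 33.4 TPM. These genes are close copies. Of windows as long as a read from the transcripts of Klk1b21, Klk1b24 and Klk1b27, 3.24%, 2.31% and 1.65% occurred in a transcript of another gene, and none of those of Klk1b22 did (GENCODE vM21).

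Genes typical of the adrenal cortex, some of which fetal Leydig cells also express, were low in all groups, and 2 of 5 kept members were higher (background 2.75%; median 0.14). Mrap, a melanocortin receptor partner, had 4.83 TPM in wild-type against 8.21 TPM in Tug1-/- testes, and Cyp21a1, steroid 21-hydroxylase, 1.99 TPM and 3.12 TPM. The log2 ratios of Akr1b7, Cyp11b2 and Cyp11b1 were 0.14, 0.12 and -0.11. Mc2r, the adrenocorticotropin receptor, was under 1 TPM. Cholesterol synthesis genes lay around the all-gene median, with 11 of 19 above 0, none past 1.5-fold and a median of 0.02.

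**Figure D4:**
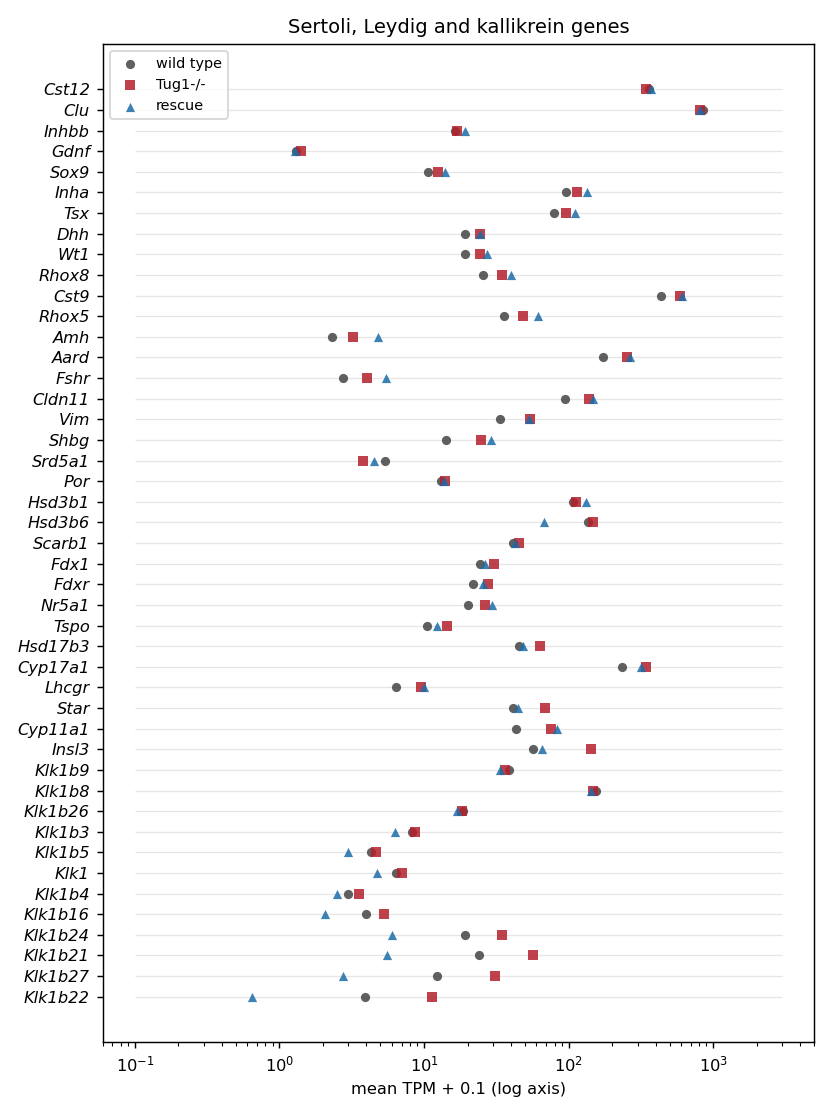
Mean TPM plus 0.1 (log x axis) of the kept Sertoli, Leydig and Klk1b genes in wild-type (circles), Tug1-/- (squares) and rescue testes (triangles), ordered by log2 ratio within each list. Squares lie right of circles for 16 of 18 Sertoli and 14 of 15 Leydig genes, and triangles lie left of circles for all 12 kallikreins.

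Peritubular and smooth muscle genes had 8 of 9 kept members above 0 (61.7% of all genes; median 0.41). Des, desmin, had 4.09 TPM in wild-type against 8.12 TPM in Tug1-/- testes, and Cnn1, calponin, 4.15 TPM and 7.19 TPM, and these 2 were the higher members (background 2.75%). In rescue testes Des, which is also a skeletal muscle gene, had 4.62 TPM and Cnn1 had 5.07 TPM. Acta2, smooth muscle actin, had 76.7, 105 and 90.8 TPM in wild-type, Tug1-/- and rescue testes. Myh11, smooth muscle myosin, had 21.7, 28.1 and 22.3 TPM, and Myl9 90.5, 120 and 128 TPM. Rescue means were thus near wild type in some members, Des among them, and not in others. Actg2, the most abundant, differed in the other direction, with 440.4, 352 and 318 TPM. The list as a sum was 668 and 654 TPM in wild-type and Tug1-/- testes.

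All 13 genes of interstitial fibroblasts and matrix were above 0 (61.7% of all genes; median 0.15), and 1 was higher by at least 1.5-fold (background 2.75%). Sparc, a matrix glycoprotein also made by Sertoli and Leydig cells, had 199.9 TPM in wild-type, 331 TPM in Tug1-/- and 314 TPM in rescue testes. Col4a1, of basement membranes, had 8.51, 10.9 and 11.5 TPM. Endothelial genes had no common direction, with 7 of 12 above 0 and a median of 0.02. Robo4, a receptor of blood vessels, was higher (0.725, 2.26 and 2.20 TPM), whereas the endothelial cadherin Cdh5 had 5.28, 6.28 and 6.15 TPM and Pecam1 had 1.59, 1.61 and 1.53 TPM.

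Macrophage genes were above 0 in 13 of 14 kept cases (median 0.44), and 4 were higher by at least 1.5-fold (background 2.75% higher, 61.7% above 0). Cd163, a scavenger receptor of resident macrophages, had 1.45 TPM in wild-type, 3.16 TPM in Tug1-/- and 2.32 TPM in rescue testes. The antigen-presentation genes H2-Aa (11.3, 19.97 and 20.4 TPM), H2-Eb1 (16.2, 25.4 and 26.2 TPM) and Cd74 (27.1, 46.6 and 49.9 TPM) were the others past 1.5-fold. The complement genes C1qa, C1qb and C1qc lay between 0.30 and 0.51. Csf1r, the receptor that macrophages need to survive, had 7.21, 9.14 and 8.94 TPM, and Adgre1, the F4/80 antigen, 5.17, 5.66 and 5.13 TPM. Aif1, which spermatids express at a high level, made up 76.1% of the list's summed wild-type TPM and was the member below 0 (617 and 604 TPM). T- and B-cell genes were near the limit of 1 TPM, with 4 of 9 kept. Cd3d had 6.83 and 5.34 TPM, while Cd3e and Cd3g were under 1 TPM in both groups.

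Acute phase and inflammation genes had 8 of 13 kept and 4 higher (background 2.75%), with a median of 0.49. Serpina3n had 4.10 TPM in wild-type, 13.9 TPM in Tug1-/- and 7.18 TPM in rescue testes, and haptoglobin (Hp) 1.90, 4.30 and 2.92 TPM. Socs3, a feedback inhibitor of cytokine signalling, had 1.5, 2.41 and 2.28 TPM. Lcn2, an iron-carrier-binding lipocalin that the epididymis also makes, had 219, 342 and 159 TPM and held 85.4% of the list's wild-type TPM. Among the other members, the complement gene C3 had 16.3 and 20.7 TPM and the cytokine Il1b 3.94 and 3.59 TPM in wild-type and Tug1-/- testes. The chemokines Cxcl1 (0.141 and 0.753 TPM) and Ccl2 (0.158 and 0.485 TPM) had higher Tug1-/- means but stayed under 1 TPM in both groups, as did Il6. Of 5 kept erythrocyte genes (median -0.84), the 4 globin genes were lower (background 3.51%), as with Hba-a1 (6.36, 3.28 and 3.01 TPM) and Hbb-bs (16.6, 9.18 and 9.66 TPM). Alas2, the heme enzyme of red cells, did not follow the globins, with 18.3, 23.9 and 23.9 TPM.

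**Figure D5:**
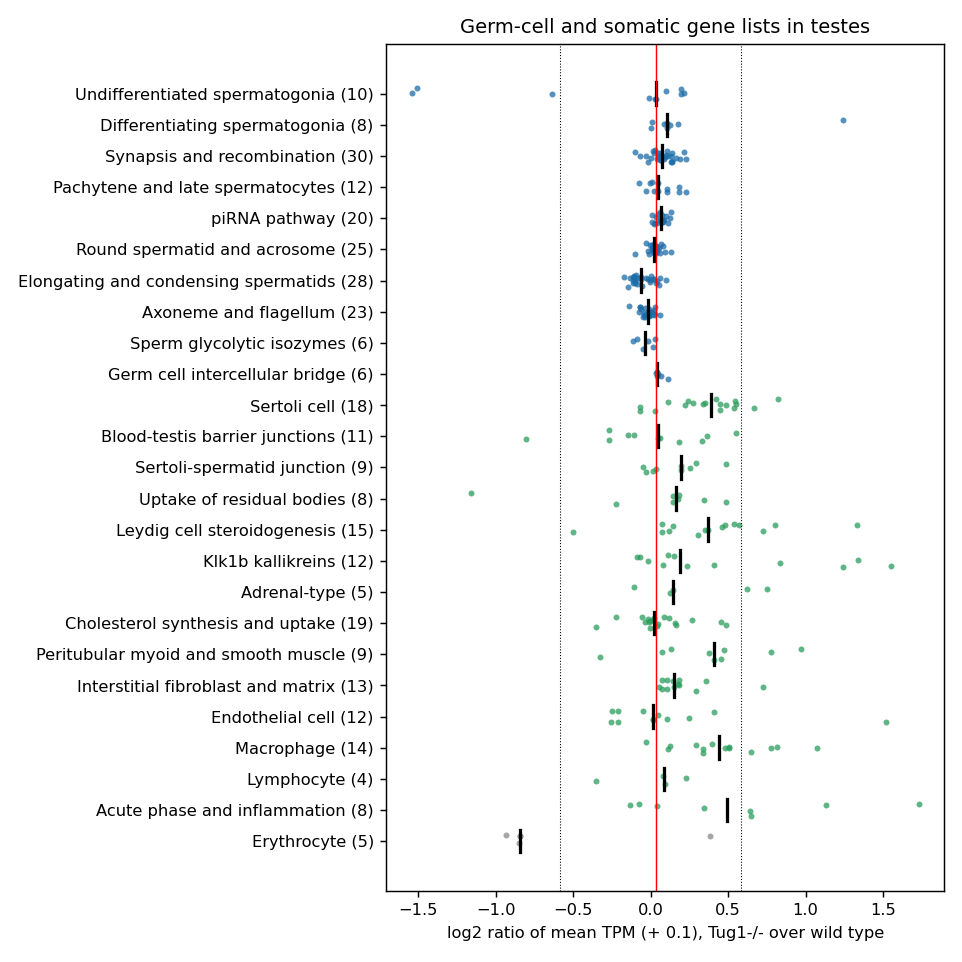
Log2 ratio of mean TPM of every kept gene (points) in 25 lists, germ-cell lists in blue, somatic lists in green and the erythrocyte list in grey, with the number of kept genes in brackets. Black bars are list medians, the red line is the all-gene median and dotted lines mark 1.5-fold. Points of the meiotic and spermatid lists lie close to the red line, and Sertoli, Leydig and macrophage medians lie to the right of it.

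Stress and housekeeping lists are given beside the 6.26% of all kept genes that were past 1.5-fold in either direction. Heat shock genes had a median of 0.05 and 1 of 10 past 1.5-fold, Hspb1, a small heat shock protein (25.4 and 40.9 TPM). Of 8 kept immediate early genes (median 0.22), Egr2 was lower (9.77 TPM in wild-type, 0.734 TPM in Tug1-/- and 0.569 TPM in rescue testes) and Fos higher (0.751, 1.23 and 1.01 TPM). None of 10 glutathione transferases was past 1.5-fold (median 0.19); Gsta4 had 74.8 and 104 TPM. Among mitochondrially encoded genes, mt-Co1 had 6624 and 7413 TPM, and mt-Nd3 was past 1.5-fold at a far lower level (1.64, 11.5 and 10.2 TPM). mt-Co2, mt-Co3 and mt-Atp6 were under 1 TPM in both groups, so this list does not hold the usual levels of these transcripts. Of 17 genes near Tug1, 6 were higher and none lower (background 2.75% and 3.51%), the largest being Smtn and Gm11946, and their rescue means lay near the Tug1-/- means (38.1 and 35.8 TPM for Smtn against 4.22 TPM in wild type).

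The genes were also divided by where else they are expressed, using the highest wild-type mean TPM among 6 other tissues of the series (eyes, heart, liver, embryonic fibroblasts, prostate and spleen). Genes at least 10-fold higher in testes than in all 6 numbered 5400 and held 49.6% of wild-type TPM, with a median log2 ratio of 0.00, and 152 of them were higher and 220 lower. This class holds both germ-cell genes and the epididymal genes, since no epididymis was among the 6 tissues. Genes at up to 10-fold higher in another tissue than in testes numbered 9464 and had a median of 0.05, with 69.3% above 0.

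Among the 3327 genes over 10-fold higher in another tissue, the tissues were not alike. For 361 genes highest in prostate, the median was -0.12, with 88 lower and 8 higher (background 3.51% and 2.75%). For 716 genes highest in spleen it was 0.08, with 30 lower and 50 higher, and for 274 genes highest in heart 0.09, with 15 lower and 23 higher. For 702 genes highest in fibroblasts it was 0.08, with 32 lower and 37 higher. For 842 genes highest in eyes and 432 highest in liver the medians were 0.01 and 0.05, with 67 and 34 lower and 46 and 28 higher. Prostate is a glandular epithelium, and the share of lower genes was highest in its class; this was not tested.

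Genes of at least 10 TPM in both groups with the lowest log2 ratios were 9230104L09Rik, Slc38a5, Defb39, Defb30, Adam7 and Wfdc13. Slc38a5, an amino acid transporter, had 141 TPM in wild-type, 11.3 TPM in Tug1-/- and 11.7 TPM in rescue testes. Defb30 showed a like pattern (95.1, 11.4 and 11.6 TPM), whereas Defb39 had 113, 11.6 and 0.0829 TPM and 9230104L09Rik 251, 17.6 and 4.47 TPM. Members of the epididymal list also differed in rescue testes, where Lcn5, Gpx5 and Adam7 were under 1 TPM, Rnase10 had 7.79 TPM (its wild-type and Tug1-/- means being 189.8 and 7.93 TPM) and Cst8 had 590 TPM.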

How the data were processed

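The authors sequenced RNA of testes from 11 mice (4 wild-type, 4 Tug1-/-, 3 rescue) (poly(A) libraries, TruSeq v2 kit, paired reads of 101 bases, HiSeq). Per the study's methods and the labels, reads were basecalled with CASAVA 1.8.2, mapped with STAR to mm10 and assigned with featureCounts to GENCODE vM16 genes, uniquely mapped reads only, and genes with under 3 reads in every replicate were dropped; the versions of STAR and featureCounts and the strand setting are not given in the sources used here. The deposited TPM values are the authors' means of each group, and no count or per-sample value is used, so depth is unknown and no interval was computed. The authors' TPM columns for other tissues (unit named other, since several tissues share a column) served for the tissue classes. Columns of the authors' own DESeq2 comparisons (fold changes, test statistics, adjusted p-values, calls for knockout and rescue) were not used. The labels name the testes table and the table of other tissues crosswise; each was identified by its content.

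Log2 ratios of mean TPM + 0.1 were computed in Python 3.11.15 (pandas 2.3.3, numpy 2.4.6) for genes of at least 1 TPM in either group and compared with a fold of 1.5; the step was checked on simulated data with 200 altered genes. Lists cover germ-cell stages and somatic cells (32 lists). The members and lists were chosen with earlier results of these data known, and the fast muscle list and gene families after the values below were seen. Named genes are Tug1, per list the 2 highest and 2 lowest log2 ratios, the most abundant member and members past 1.5-fold, any Klk1b, Leydig, Sertoli and elongating spermatid gene, the 12 highest and 12 lowest of the table, and the 6 highest and 6 lowest at 10 TPM or more in both groups; other genes were named for their role or place after their values were seen. Promoters (250 bases before to 50 after the start) are RefSeq's on GRCm38.p6. Alternatives were other pseudocounts, filters, folds and scalings.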

Additional observations from a re-analysis of the deposited data

How the results depend on the processing

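No paired analysis was possible because the deposited table holds group means only, and for the same reason no sample could be left out in turn; both were planned and not run. The 615 higher and 786 lower genes became 306 and 513 with a pseudocount of 1 TPM, 197 and 255 at 5 TPM or more in either group, 1643 and 1809 without a filter, 1744 and 1489 at a log2 threshold of 0.32, and 200 and 423 at a fold of 2. Without predicted-gene names 388 were higher and 527 lower. With alternatives chosen after seeing the data, they became 65 and 45 at 10 TPM or more in both groups and 322 and 475 in protein-coding rows. Centred on the median, 551 were higher and 840 lower.

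Of 264 list medians under 8 other settings, 245 moved by under 0.1 on the log2 scale. The epididymal median was -6.00 with a pseudocount of 1 TPM, -8.17 with 0.01 TPM, -6.30 without a filter and -6.76 after rescaling without genes of 1000 TPM or more, and it was 0.27 once genes 4-fold or more apart were left out, which removes most of its members (chosen after seeing the data). The fast muscle median was 1.51, 2.74, 3.25 (5 TPM filter), 2.30 (no filter) and 0.98 (4-fold genes left out). A pseudocount of 1 TPM gave 0.39 for acute phase and -0.64 for erythrocyte genes. The 5 TPM filter, which leaves fewer genes in each list, gave -0.63 for undifferentiated spermatogonia, 0.45 for adrenal-type, -0.35 for lymphocyte and 0.028 for multicopy X and Y genes (main value -0.16). Without a filter acute phase genes were at 0.34 and multicopy genes at -0.054. Without genes of 1000 TPM or more the mitochondrially encoded median was 1.36, since few members are left, and the log2 ratio of summed TPM was -1.67 for epididymal genes and 0.21 for glutathione transferases. Sertoli, Leydig, macrophage and elongating spermatid medians kept their sign under all 8 settings. What the depth of each library allows is unknown from means.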
